A study of Caenorhabditis elegans with 5 samples.

Results

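The irld genes of Caenorhabditis elegans encode proteins with the insulin and EGF receptor-like domain, and were followed here across neurons sorted from thoc-5 mutant and wildtype animals. Members were all genes whose name in the table is irld followed by a number, together with hpa-1 and hpa-2, which gave 67 of the 42048 genes listed. Measured members were selected on their own levels: at least 2 of the 5 libraries had to reach a normalised read count of 10. This left 41 members. Another 15 had reads but fell short of this rule, irld-4 among them with 85.0 in wildtype replicate 2 alone, and 11 had none. The level threshold used the same counts that are described below. Of the 41 measured members, 28 passed it through mutant libraries alone, 13 with a value of 10 or more in both groups and none through wildtype libraries alone, where 9.56% of the 13787 genes that passed in the whole table did so through mutant and 3.95% through wildtype libraries alone. A gene that passes through mutant libraries alone is high in at least 2 of them and below 10 in both wildtype libraries by that choice, so counts and medians over the measured members describe them and are not evidence of a change. The members nearest the threshold were irld-55 with a second highest value of 10.05 just inside, and irld-36 and irld-8 with 7.81 each just outside.

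The THO complex, to which THOC-5 belongs, packages new messenger RNA for export from the nucleus. The mutant animals carried thoc-5(wy822) and the transgene edIs6, and gave 3 libraries (mutant replicates 1 to 3). The animals they were set against were wildtype at thoc-5, also carried edIs6, and gave 2 libraries. All worms were grown at 16 °C and taken on day 1 of adulthood, and polyadenylated RNA of neurons separated by fluorescence-activated sorting was sequenced. edIs6 is known as an integrated unc-119::GFP array that marks neurons, and the lesion in wy822 is not described in the labels. Nor do they say that the libraries stem from separately grown worms, so the p-values speak for the spread among these 5 samples alone, part of which may be technical. Strand is not kept by the kits named, and genes that overlap on opposite strands cannot be told apart by these reads.

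Receptor L domains form the ligand-binding outer part of the insulin receptor DAF-2 and of the EGF receptor LET-23. IRLD proteins carry such domains without the kinase that passes the signal on, and the family is greatly expanded in C. elegans. The best studied members are hpa-1 and hpa-2, named for high performance in advanced age, which dampen EGF signalling, and irld-39 and irld-52, variation in which changes how long starved larvae survive.

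Mutant replicates 1 to 3 held 7.36 M, 6.80 M and 8.69 M reads counted on genes, and wildtype replicates 1 and 2 held 10.3 M and 10.2 M. The gene thoc-5 itself, listed as Y32H12A.2, had normalised counts of 78.3, 34.6 and 12.7 in the mutant libraries, against 154 and 122.2 in the wildtype libraries (limma adjusted p = 0.148). unc-119, part of edIs6, had 2612, 1434 and 3271 in the mutant libraries, against 327 and 249 in the wildtype libraries (limma adjusted p = 0.0382), and reads of the transgene may be among these. Marker lists differed widely between the groups in their share of the reads. Genes of ciliated sensory neurons took 0.315%, 0.634% and 0.514% of the reads of mutant replicates 1 to 3, against 0.0536% and 0.0216% in wildtype replicates 1 and 2. All 30 genes of that list had reads in every mutant library and in wildtype replicate 1, and 6 of them had none in wildtype replicate 2, namely bbs-1, bbs-5, daf-11, dyf-5, tax-4 and tub-1. Pan-neuronal genes took 1.62% to 2.53% in the mutant libraries, against 0.570% and 0.0726% in wildtype replicates 1 and 2. This total, used again below, leaned on a few genes. In mutant replicate 3, egl-21, ida-1 and egl-3 gave 101217, 39599 and 36140 of its 220039 reads. Of the 23 measured genes of the list, 22 had a positive and 1 a negative log2 fold change. Genes of epidermis and cuticle took 0.232% to 1.11% in the mutant libraries and 6.04% to 9.02% in the wildtype libraries. A few collagen genes made up most of this, with 417686 reads of col-119 and 399414 of col-140 among 929813 in wildtype replicate 1. Of the 21 measured genes of the list, 8 had a positive and 13 a negative log2 fold change. The shares of muscle, intestine, and germline and oocyte genes ranged over 1.26% to 1.57%, 0.0574% to 0.287% and 0.0298% to 0.118% in the mutant libraries, and over 3.37% to 6.37%, 0.811% to 0.916% and 0.178% to 0.582% in the wildtype libraries. Glia and coelomocyte genes, pooled in 1 list, took 0.189% to 0.335% in the mutant libraries and 0.0190% to 0.0532% in the wildtype libraries. In mutant replicate 2, cup-4, lgc-26 and unc-122 gave 9528, 6004 and 2541 of the list's 22745 reads. The list's median log2 level was 6.45, 7.10 and 6.85 in mutant replicates 1 to 3, against 7.24 and 4.99 in wildtype replicates 1 and 2. Its share thus does not speak for glia genes as a class. In such bulk samples fewer cells of a type and less RNA per cell cannot be told apart.

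As a family, the irld and hpa genes took a larger share of the reads in all 3 mutant libraries. They had 2199, 3133 and 3634 reads in mutant replicates 1 to 3, or 0.0299% (exact Clopper-Pearson 95% interval 0.0287% to 0.0312%), 0.0461% (0.0445% to 0.0477%) and 0.0418% (0.0405% to 0.0432%). In wildtype replicates 1 and 2 they had 510 and 708 reads, or 0.00495% (0.00453% to 0.00540%) and 0.00692% (0.00642% to 0.00745%). Intervals and floors cover counting error only, since reads without molecular identifiers are not independent molecules. The family's share was lowest among the mutant libraries in replicate 1, the mutant library with the lowest share of ciliated neuron genes. Set against the ciliated list within each library, the family had 9.49, 7.27 and 8.14 reads per 100 ciliated-list reads in mutant replicates 1 to 3, against 9.23 and 31.99 in wildtype replicates 1 and 2. On that scale wildtype replicate 1 lay within the range of the mutant libraries and wildtype replicate 2 above it. Per 100 pan-neuronal reads the family had 1.26, 2.84 and 1.65 reads in mutant replicates 1 to 3, against 0.867 and 9.53 in wildtype replicates 1 and 2, so that wildtype replicate 1 lay below and wildtype replicate 2 above the mutant libraries. A further count per 100 ciliated-list reads left out irld-4, irld-6, irld-13 and irld-14, chosen after their values were seen. They held 80, 289, 139 and 51 of the 708 family reads in wildtype replicate 2, so that library was bound to fall. The count therefore does not show whether the other members follow the ciliated list. The values were 9.34, 6.999 and 8.04 in mutant replicates 1 to 3, against 7.22 and 6.73 in wildtype replicates 1 and 2.

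**Figure D1:**
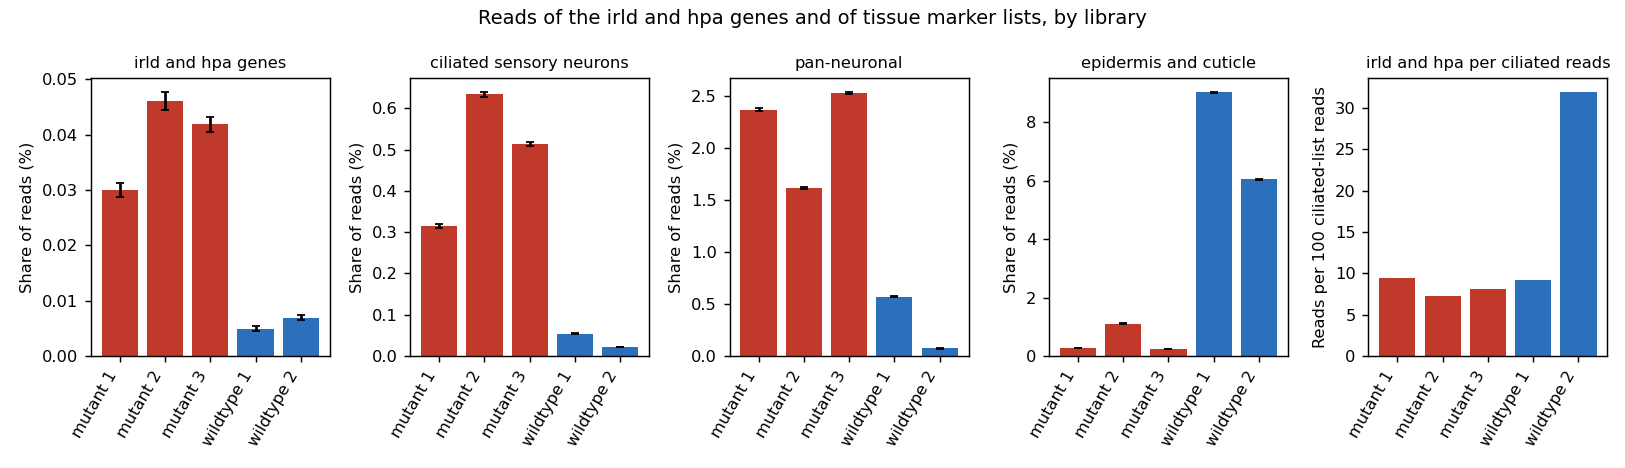
Share of reads (%, bars from 0, exact 95% intervals as error bars) of the irld and hpa genes and of 3 marker lists in each library, with reads of the family per 100 ciliated-list reads in the last panel; red bars are thoc-5(wy822) libraries and blue bars wildtype libraries. The family and the ciliated list are higher in all 3 mutant libraries, and the last panel puts wildtype replicate 1, at 9.23, within the mutant range of 7.27 to 9.49.

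Of the 41 measured members, 9 rose in the mutant libraries and none fell at a limma adjusted p below 0.05, where 6.97% of all 13787 genes rose and 5.92% fell. The 9 were irld-10, irld-19, irld-21, irld-30, irld-34, irld-38, irld-42, irld-60 and irld-65, with adjusted p from 0.0382 to 0.0479. The smallest adjusted p of any gene in the table was also 0.0382, so these calls lay near the threshold. Of these 9, only irld-34 and irld-42 had reached 10 in a wildtype library, and the other 7 had passed the level threshold through mutant libraries alone. Among the other 32 measured members 30 had a positive and 2 a negative log2 fold change. The median log2 fold change of the 41 was 3.08 (3.05 with the 6 members that had no wildtype read set at their bound), against 0.13 over all genes tested. The groups did not overlap for 20 measured members higher in the mutant libraries and 1 lower, where 30.1% of all genes tested were higher and 26.5% lower in this way. With irld-23 and irld-1, which had reads but were not measured, the numbers were 21 and 2 of the 56 members with a read, against 23.7% and 22.2% of all genes with a read. Over these members, as over the whole table, ciliated neuron genes moved with the groups, since 17 of the 30 in that list rose and all 30 were higher in every mutant library. The part of sample composition in the members' values was not tested.

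The calls rested on nearly all libraries, as did those of the whole table. Without any 1 mutant replicate 0 of all 13787 genes passed in limma. No member passed in these fits either. Without wildtype replicate 2, which leaves 1 wildtype library, the median log2 fold change of the members was 2.73. At an unadjusted p below 0.05 there were 25, 17 and 16 of the 41 members without mutant replicates 1 to 3, where 29.3%, 34.1% and 27.1% of all genes were. With all libraries it was 19 members and 38.2% of genes. Without wildtype replicate 1 there were 12 members that rose, 8 of the 9 among them, where 15.7% of all genes rose. edgeR called no member and 0 of all genes (19 members at an unadjusted p below 0.05, where 28.1% of all genes were). DESeq2 called 18 members higher and 1 lower, where it called 15.4% of genes higher and 11.6% lower. The authors' deposited table holds 18 members higher and 2 lower among the 48 it gives an adjusted p, all 9 of the limma calls among them, against 13.4% and 10.7% of its genes.

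**Figure D2:**
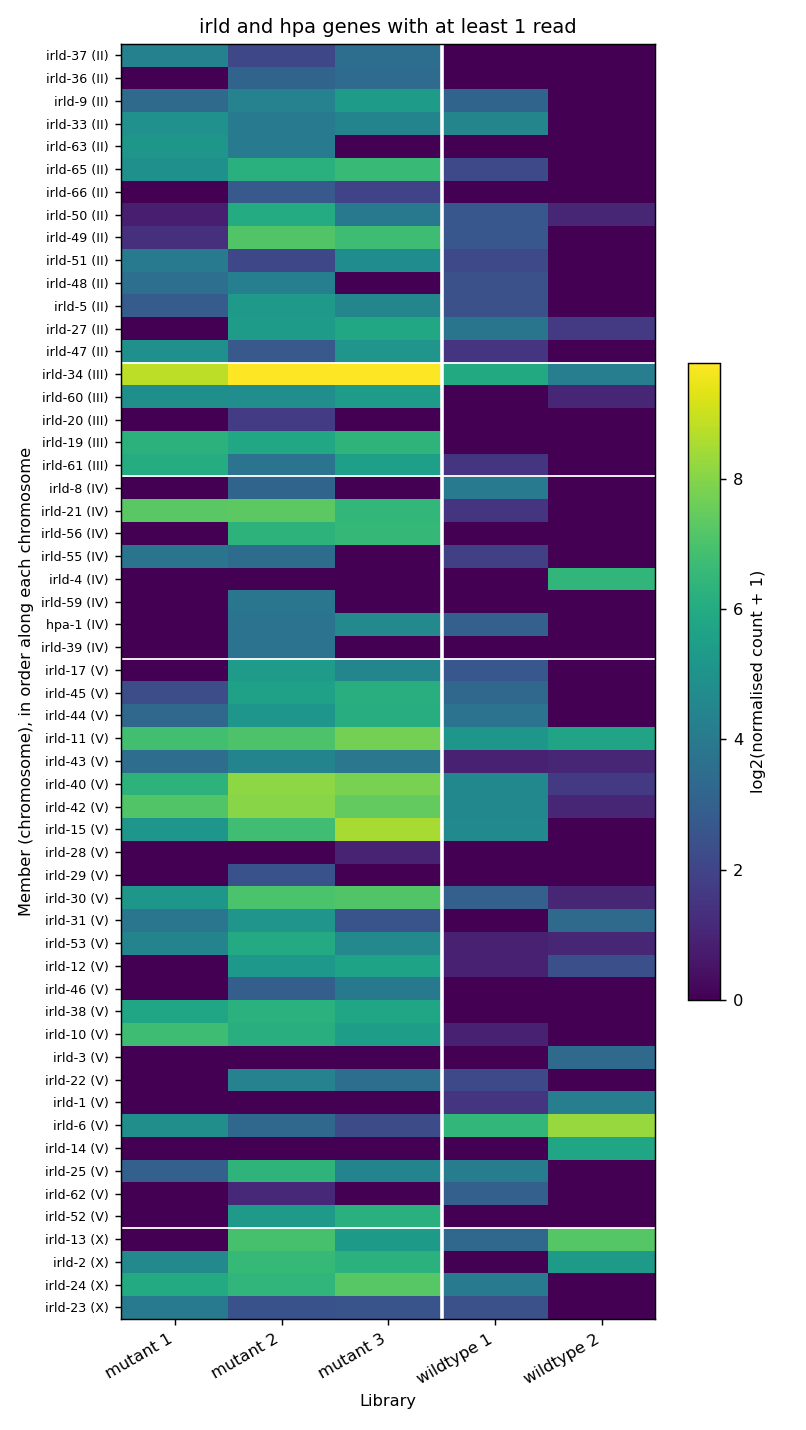
Levels of the 56 members with at least 1 read, as log2(normalised count + 1) by colour, in 3 mutant libraries (left of the white line) and 2 wildtype libraries (right), with members in order along each chromosome. irld-34 is the brightest member in each mutant library, irld-6 the brightest in both wildtype libraries, and wildtype replicate 2 is at 0 for 37 of the 56.

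irld-34 was the most abundant member, with 24.8% to 25.9% of the family's reads in each mutant library, against 13.7% and 2.26% in wildtype replicates 1 and 2. The gene (WBGene00010074) lies on chromosome III, 9155066 to 9157192, plus strand, in WBcel235, alone, with no other member within 50000 bases. It had normalised counts of 446, 868 and 880.2 in mutant replicates 1 to 3, against 61.1 and 16.9995 in wildtype replicates 1 and 2. Every mutant library was high and the groups did not overlap. The log2 fold change was 4.39 (SE 0.68, limma adjusted p = 0.0382), and without wildtype replicate 2 it was 3.50. Per 100 ciliated-list reads it had 2.46, 1.81 and 2.02 reads in mutant replicates 1 to 3, against 1.27 and 0.723 in wildtype replicates 1 and 2, so the mutant libraries stayed above both wildtype libraries on that scale. Per kilobase of exon, its mean normalised count of 358 was the highest of the family. irld-40, irld-15, irld-42 and irld-11 followed with 95.6, 90.6, 87.5 and 79.6 per kilobase, an order that their spread over libraries does not separate.

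irld-42 was the other member that rose and had reached 10 in a wildtype library. It had 140.2, 260.1 and 174 normalised counts in mutant replicates 1 to 3, against 22.7 and 1.06 in wildtype replicates 1 and 2, with every mutant library above both wildtype libraries. The log2 fold change was 4.73 (SE 1.13, limma adjusted p = 0.0462), and without wildtype replicate 2 it was 2.97. Its chromosome V neighbour irld-40 had 79.1, 279 and 226 in mutant replicates 1 to 3, against 22.7 and 2.12 in wildtype replicates 1 and 2, and stood just outside the test (log2 fold change 4.32, SE 1.10, limma adjusted p = 0.0502). Its log2 fold change was 2.86 without wildtype replicate 2 and 5.78 without wildtype replicate 1, where it passed (limma adjusted p = 0.0283). Against the ciliated list these neighbours overlapped between the groups, with 0.399 to 0.772 reads per 100 ciliated-list reads for irld-42 in the mutant libraries, against 0.471 and 0.0452 in wildtype replicates 1 and 2.

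The largest log2 fold changes belonged to members with almost no wildtype reads. irld-21 (WBGene00007310, WBcel235 chromosome IV, 10119331 to 10122305, minus strand) had 154, 159.6 and 87.7 normalised counts in mutant replicates 1 to 3, against 1.74 and 0 in wildtype replicates 1 and 2. Its 430 mutant and 2 wildtype reads gave a ratio of 140.3 in reads per size factor (exact binomial 95% interval 38.6 to 1163). The fitted log2 fold change was 6.30 (SE 0.93, limma adjusted p = 0.0382). irld-19 had 77.5, 58.0 and 81.9 in mutant replicates 1 to 3 and no read in either wildtype library, at least 51.1-fold higher when the wildtype group is set at a floor of 3 reads in all (limma adjusted p = 0.0382). irld-38 had 54.05, 74.8 and 54.6 in mutant replicates 1 to 3 and no wildtype read, at least 41.8-fold higher (limma adjusted p = 0.0382). All 3 mutant libraries were high for each of these genes.

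irld-10 had 105.0, 69.2 and 42.9 in mutant replicates 1 to 3, against 0.872 and 0 in wildtype replicates 1 and 2, with 240 mutant reads and 1 wildtype read (ratio 157, 95% interval 27.9 to 6213; limma adjusted p = 0.0384). irld-60 had 28.2, 26.8 and 40.9 in mutant replicates 1 to 3, against 0 and 1.06 in wildtype replicates 1 and 2 (ratio 66.6, 95% interval 11.7 to 2655; limma adjusted p = 0.0434). irld-65 had 29.0, 72.5 and 96.5 in mutant replicates 1 to 3, against 3.49 and 0 in wildtype replicates 1 and 2 (log2 fold change 4.82, SE 1.13, limma adjusted p = 0.0450). For all of these the mutant libraries lay above both wildtype libraries. irld-30 had 35.2, 129 and 139 in mutant replicates 1 to 3, against 6.98 and 1.06 in wildtype replicates 1 and 2 (log2 fold change 4.43, SE 1.09, limma adjusted p = 0.0479). Leaving out wildtype replicate 2 gave log2 fold changes of 3.74 for irld-65 and 3.45 for irld-30.

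**Figure D3:**
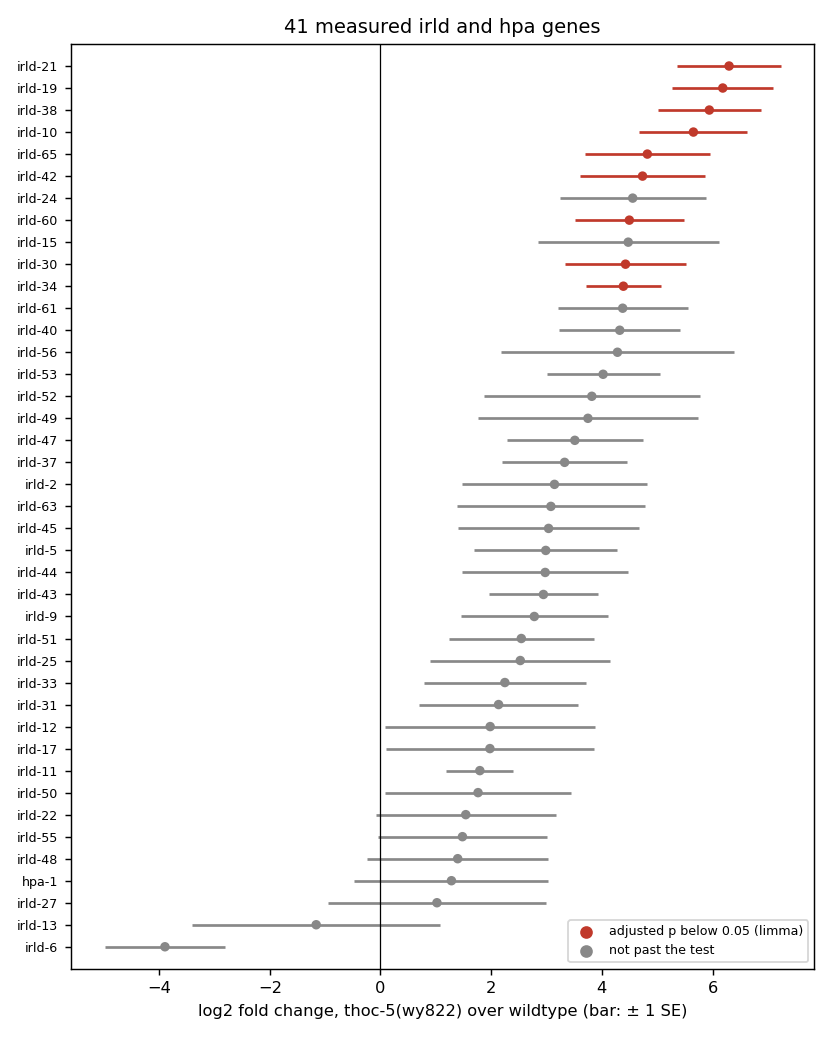
Log2 fold change of each of the 41 measured members, thoc-5(wy822) over wildtype, on the log2(normalised count + 1) scale, with bars of 1 SE; red marks the 9 members past a limma adjusted p of 0.05 and grey the other 32. Nearly all points lie right of 0, with irld-21 at 6.30 the highest, and irld-13 and irld-6 lie left of it.

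Against the ciliated list, 8 of the 9 members that rose were higher in every mutant library than in both wildtype libraries, all but irld-42. The 9 had been picked as higher in the mutant libraries, and 7 of them had passed the level threshold through mutant libraries alone. Their order on this scale is therefore no separate evidence of a change. Of the 41 measured members 10 were higher and 2 lower on this scale, where 3.48% of all genes tested were higher and 66.5% lower. Since 28 of the 41 had passed through mutant libraries alone, these counts only describe the members. The depth of the ciliated list limits this comparison in wildtype replicate 2, where 3 reads correspond to 0.136 reads per 100 ciliated-list reads. The lowest mutant value lay above that floor for irld-21, irld-30, irld-34, irld-42 and irld-65 and below it for the other 4 of the 9. For irld-21 the values were 0.850, 0.332 and 0.202 in mutant replicates 1 to 3, against 0.0362 and 0 in wildtype replicates 1 and 2.

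Some abundant members did not pass in limma. irld-11 had 112.0, 132 and 215 normalised counts in mutant replicates 1 to 3, against 34.01 and 51.0 in wildtype replicates 1 and 2, without overlap and with the smallest SE of any member (log2 fold change 1.79, SE 0.61, limma adjusted p = 0.0833). DESeq2 called it higher, as does the authors' deposited table (adjusted p = 0.0439). It was the member most evenly present in all 5 libraries, and per 100 ciliated-list reads the order turned round, at 0.617, 0.274 and 0.495 in mutant replicates 1 to 3, against 0.706 and 2.17 in wildtype replicates 1 and 2. irld-15 spread widely, with 34.5, 109 and 360 in mutant replicates 1 to 3, against 24.4 and 0 in wildtype replicates 1 and 2 (log2 fold change 4.48, SE 1.64, limma adjusted p = 0.0978). Its log2 fold change was 2.14 without wildtype replicate 2, 3.63 without mutant replicate 3, 5.31 without mutant replicate 1 and 6.81 without wildtype replicate 1, where it passed (limma adjusted p = 0.0483).

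irld-6 was the measured member that lay lower in every mutant library than in both wildtype libraries. It had 27.4, 8.93 and 3.90 normalised counts in mutant replicates 1 to 3, against 88.1 and 307 in wildtype replicates 1 and 2, so both wildtype libraries lay above all mutant libraries. The log2 fold change was -3.89 (SE 1.09, limma adjusted p = 0.0586), which did not pass here but did with a pseudocount of 8, with quantile scaling and in DESeq2. In the authors' deposited table the value is -3.53 (adjusted p = 0.00445), and the other member called lower there is irld-4 (-4.50, adjusted p = 0.0430). Among members that were not measured, irld-1 was likewise lower, with no read in the mutant libraries, against 1.74 and 16.9995 normalised counts in wildtype replicates 1 and 2. Exons of irld-1 overlap those of glrx-3 on the opposite strand, so the reads listed for irld-1 may belong to either gene. irld-6 supplied 19.8% and 40.8% of the family's reads in wildtype replicates 1 and 2 and was the most abundant member there. The gene lies on chromosome V, 10754404 to 10756798, minus strand, in WBcel235, with no other member within 50000 bases.

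**Figure D4:**
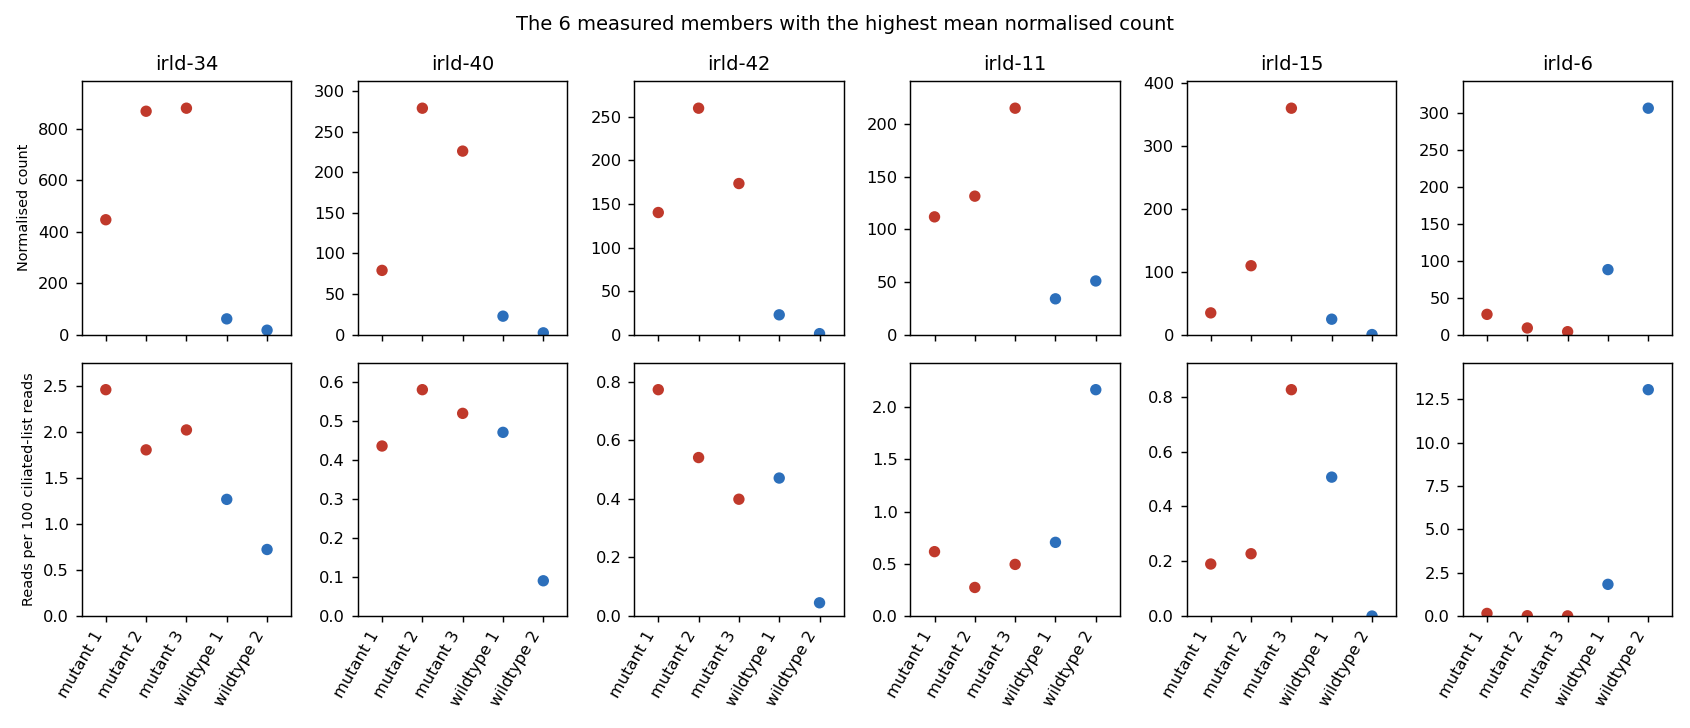
The 6 members with the highest mean level, by library, as normalised counts (top row) and as reads per 100 ciliated-list reads (bottom row), each axis from 0; red points are thoc-5(wy822) libraries and blue points wildtype libraries. irld-34 is higher in the mutant libraries in both rows, irld-11 changes order between the rows, and irld-6 is higher in the wildtype libraries in both.

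hpa-1 was at the edge of detection and hpa-2 was not detected. hpa-1 had 0, 12.3 and 23.4 normalised counts in mutant replicates 1 to 3, against 6.98 and 0 in wildtype replicates 1 and 2, so the groups overlapped (log2 fold change 1.28, SE 1.75, limma adjusted p = 0.628). Without wildtype replicate 2 the log2 fold change was -0.22, the opposite sign. hpa-2, which the annotation classes as a pseudogene, had 0 reads in every library. Of the starvation genes, irld-52 had 0, 36.8 and 73.1 in mutant replicates 1 to 3 and no wildtype read, high in part of the mutant libraries and not past the test (limma adjusted p = 0.201). DESeq2 called it higher, as does the authors' deposited table (adjusted p = 0.0329). irld-39, next to hpa-1 on chromosome IV, had 12.3 in mutant replicate 2 and no read elsewhere, and irld-57 had none at all.

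Several members had reads in part of a group's libraries and none in the rest, most often with mutant replicate 1 at 0 among the mutant libraries. Among the 33 members at 10 or more in both of those libraries 8 had no read in mutant replicate 1 (24.2%), against 2.38% of the 10813 genes of the whole table under the same condition. Under the same condition for mutant replicate 3 it was 3 of 22 members (irld-48, irld-55 and irld-63; 13.6%, against 2.15% of all genes), and for mutant replicate 2 none of 21 (0.361% of all genes). Of 12 members at 10 or more in wildtype replicate 1, 6 had no read in wildtype replicate 2, where 8.87% of all genes had none. Of 8 members at 10 or more in wildtype replicate 2, 3 had no read in wildtype replicate 1 (37.5%, against 3.13% of all genes). The shares of all genes are not matched to the members in level, and some members lay little above 10, where a count of 0 is more likely. The 8 without a read in mutant replicate 1 were hpa-1, irld-12, irld-13, irld-17, irld-22, irld-27, irld-52 and irld-56, chosen after their values were seen. irld-56 was the clearest, with 0, 79.2 and 90.7 normalised counts in mutant replicates 1 to 3 and no wildtype read (limma adjusted p = 0.187). irld-49 was close to that pattern, with 1.57, 137 and 105 in mutant replicates 1 to 3, against 5.23 and 0 in wildtype replicates 1 and 2 (limma adjusted p = 0.213). DESeq2 called both higher, as does the authors' deposited table (adjusted p = 0.0150 for irld-56 and 0.0329 for irld-49). Mutant replicate 1 was the lowest of the mutant libraries for 27 of the 41 measured members, where it was so for 34.5% of all genes tested.

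The reverse, reads in wildtype replicate 2 alone, was seen for irld-4, irld-14 and irld-3, with 85.0, 54.2 and 9.56 normalised counts there and no read in the other 4 libraries. irld-13 had 0, 121.7 and 38.99 in mutant replicates 1 to 3, against 8.72 and 148 in wildtype replicates 1 and 2, high in mutant replicate 2 and wildtype replicate 2 (log2 fold change -1.16, SE 2.24, limma adjusted p = 0.738). Without wildtype replicate 2, or without mutant replicate 1, its log2 fold change was 0.81 or 0.88, the opposite sign. irld-2 had 23.5, 93.8 and 75.1 in mutant replicates 1 to 3, against 0 and 39.3 in wildtype replicates 1 and 2, with overlapping groups. Over the 56 members with a read, wildtype replicates 1 and 2 correlated at a Spearman rho of 0.12, against 0.82 over all 18919 genes with a read. Mutant replicates 2 and 3 correlated at 0.83 over the members and replicate 1 with them at 0.55 and 0.58, where all genes gave 0.86 to 0.88. These are descriptions across genes of the same libraries, and many members are at or near 0.

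Members lay on chromosomes II, III, IV, V and X, with 17, 5, 10, 31 and 4 genes. With gaps of at most 50000 bases, 43 of the 67 lay in 10 clusters, of which 31 were measured, and 24 lay alone, of which 10 were measured. All 7 members of the cluster on chromosome V, 1632017 to 1670761 in WBcel235, were measured, and among them irld-42 rose. This cluster holds irld-11, irld-40, irld-42, irld-43, irld-44, irld-45 and irld-17, and summed to 354, 814 and 788 normalised counts in mutant replicates 1 to 3, against 106 and 55.2 in wildtype replicates 1 and 2. On chromosome III, 12747880 to 12769048, irld-19 and irld-60 rose and irld-61 had 65.8, 12.3 and 44.8 in mutant replicates 1 to 3, against 1.74 and 0 in wildtype replicates 1 and 2, just outside the test (limma adjusted p = 0.0548). Between them irld-20 had 2 reads in 1 library, mutant replicate 2. The cluster of 10 members on chromosome II, 2928221 to 2958191, was as uneven, with irld-65 higher in the mutant libraries, hpa-2, irld-64 and irld-67 without a read, and irld-63 at 35.2, 15.6 and 0 in mutant replicates 1 to 3. On chromosome V, 3018361 to 3037689, the neighbours irld-38 and irld-10 both rose, with at most 1 wildtype read each, while irld-12 had 0, 35.7 and 50.7 in mutant replicates 1 to 3, against 0.872 and 4.25 in wildtype replicates 1 and 2. Neighbours in these 4 clusters thus matched in some cases and not in others.

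The annotation classes 57 members as protein coding and 10 as pseudogenes, and 6 of the pseudogenes were measured. irld-10, described above, had the highest mean of them over the mutant libraries. irld-5, irld-31, irld-37 and irld-43 ranged from 3.35 to 36.8 normalised counts in the mutant libraries and from 0 to 9.56 in the wildtype libraries, and none passed the test. The sixth, irld-13, is the pseudogene described above. How the authors counted reads that match several copies is not given in the sources used here, so a pseudogene and a similar gene may share reads. irld-35 and irld-53 are a pair in point, since each spans 2111 bases with 1206 bases of exon and the Ensembl annotation names both irld-35. The table lists irld-35 at 0 in every library and irld-53 at 20.4, 61.4 and 23.4 in mutant replicates 1 to 3, against 0.872 and 1.06 in wildtype replicates 1 and 2 (limma adjusted p = 0.0503), so their separate values are uncertain. irld-28 and irld-32 overlap on opposite strands, and between them they had 1 read.

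The receptors of insulin and EGF signalling carry the related domain, and genes of both pathways were set beside the members. Of 19 measured insulin signalling genes none passed in limma (3 at an unadjusted p below 0.05, 0 in edgeR and 3 higher in DESeq2), where 38.2% of all genes were at an unadjusted p below 0.05 and DESeq2 called 15.4% higher. Their median log2 fold change was 0.60, against 0.13 over all genes. daf-2, the insulin receptor gene, had 1512, 967 and 758 normalised counts in mutant replicates 1 to 3, against 379 and 156 in wildtype replicates 1 and 2, without overlap (log2 fold change 2.08, SE 0.55, limma adjusted p = 0.0537). It stood past the threshold in the authors' deposited table (adjusted p = 0.0273) and in limma without wildtype replicate 1 (adjusted p = 0.0382). pptr-1, a phosphatase subunit that acts on the kinase AKT-1, averaged 866 ± 84.8 in the mutant and 323 ± 141 in wildtype (SD, n = 3 and 2; log2 fold change 1.49, SE 0.44, limma adjusted p = 0.0657).

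Of 29 measured EGF signalling genes 2 rose and none fell, a share near the 6.97% of all genes that rose, and their median log2 fold change was 0.50. They were lin-10 and lin-2, whose products form a complex with LIN-7 that places the EGF receptor at the basal side of vulval cells. The groups overlapped for lin-7, with 19.6, 4.46 and 12.7 normalised counts in mutant replicates 1 to 3, against 9.59 and 5.31 in wildtype replicates 1 and 2 (limma adjusted p = 0.765). lin-10 had 2612, 1567 and 1878 in mutant replicates 1 to 3, against 518 and 320 in wildtype replicates 1 and 2 (log2 fold change 2.27, SE 0.45, limma adjusted p = 0.0397). lin-2 had 1032, 876 and 1416 in mutant replicates 1 to 3, against 338 and 187 in wildtype replicates 1 and 2 (log2 fold change 2.11, SE 0.46, limma adjusted p = 0.0435). Both calls were lost without any 1 mutant replicate and in edgeR. With 1 library left out the log2 fold change ranged from 1.93 to 2.62 for lin-10 and from 1.68 to 2.53 for lin-2. No gene of the whole table passed in limma without any 1 mutant replicate, nor in edgeR. The EGF receptor gene let-23 had 226, 294 and 257 in mutant replicates 1 to 3, against 118 and 90.3 in wildtype replicates 1 and 2, without overlap (log2 fold change 1.31, SE 0.46, limma adjusted p = 0.0892). The groups overlapped for lin-3, which encodes the EGF-like ligand, with 0, 26.8 and 11.7 in mutant replicates 1 to 3, against 27.9 and 8.50 in wildtype replicates 1 and 2 (limma adjusted p = 0.616).

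**Figure D5:**
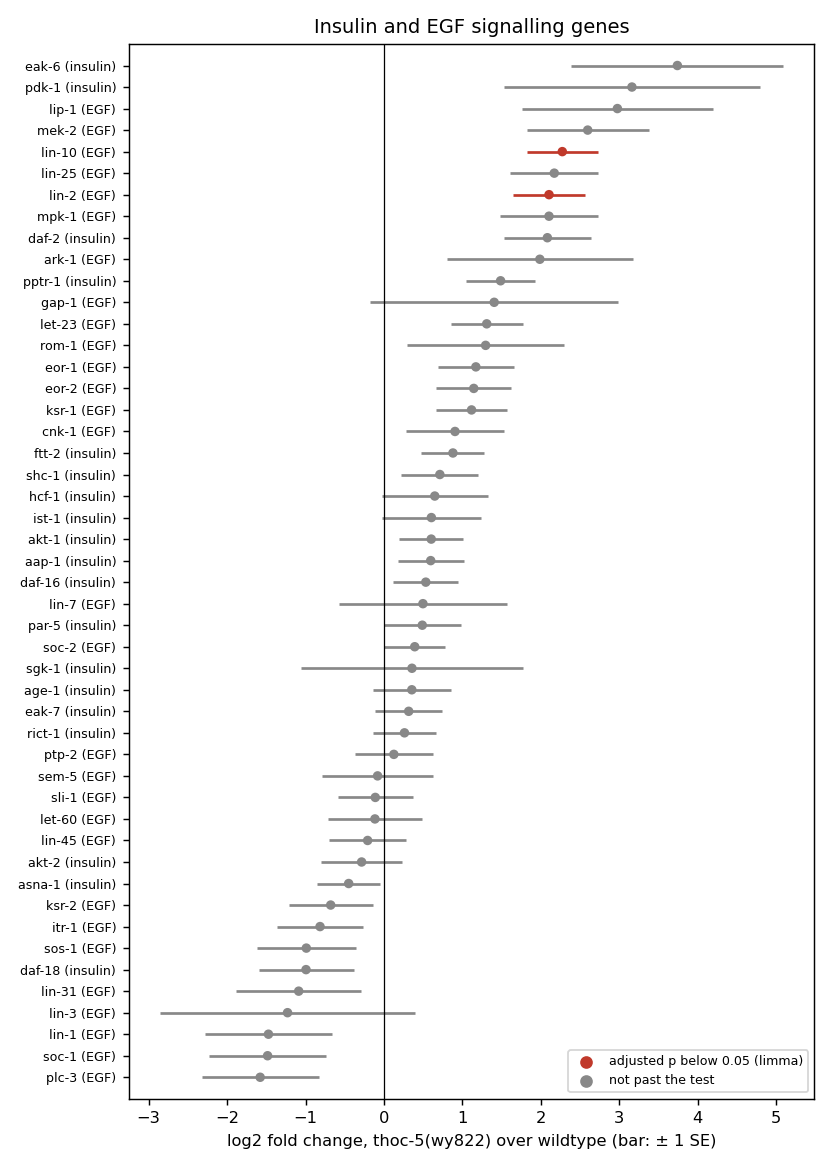
Log2 fold change of 19 insulin signalling and 29 EGF signalling genes, thoc-5(wy822) over wildtype, with bars of 1 SE; red marks genes past a limma adjusted p of 0.05. lin-10 and lin-2 are the red points, at 2.27 and 2.11, and the insulin receptor gene daf-2 lies near them at 2.08 in grey.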

How the data were processed

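The authors deposited 1 table covering 42048 genes. The submitters' processing notes name Trim Galore, STAR 2.4.2a, DESeq2 and ce10, and the sources used here give neither the read counter nor the annotation. Per library the authors deposited a signal that is never negative, namely a gene's count divided by the library's size factor. Per the file headers, further columns hold a log2 fold change with its error, a test score (the authors' Wald statistic), a p-value and an adjusted p-value. Of the non-zero values 100% were whole multiples of 1 read in each library (tolerance 1e-04 reads). On these recovered reads edgeR called 0 genes and DESeq2 3718.

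The test was that of limma 3.58.1 in R 4.3.3 (trended eBayes, no covariate, two-sided, Benjamini-Hochberg over all genes, threshold 0.05), fitted to log2(normalised count + 1) in all 5 libraries over the 13787 genes at 10 or more in at least 2 of them. Fold changes of low genes on this scale depend on the pseudocount and can lie below or above the ratio of summed reads. Alternatives were pseudocounts of 0.5 and 8, scaling by upper quartile or quantiles, a level threshold of 50 or none, a block for the replicate number, edgeR 4.0.16, DESeq2 1.42.0, the authors' p-values and leaving out each library. The limma fit was tried on simulated counts, with changes placed only in genes of higher mean level and no difference in sample composition. That trial does not speak for members with few reads. Positions of all 67 members come from Ensembl release 115 (WBcel235), matched through RefSeq sequence names, since the table carries no coordinates. The rule named members that passed, hpa-1, hpa-2, irld-39, irld-52, irld-57, the 6 with the highest mean, and the 4 largest rises and falls (2 were negative), and of the pathway lists the genes that passed, or else the 2 with the smallest p, besides daf-2, let-23, thoc-5 and unc-119. Other genes were chosen after their values were seen. Members and lists were chosen with earlier results of these data known.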

Additional observations from a re-analysis of the deposited data

How the results depend on the processing

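The count of all genes past the limma threshold, 1777, became 3217 with a pseudocount of 8, 1079 with no filter, 2998 with quantile scaling, 0 in edgeR (3869 at an unadjusted p below 0.05), 3718 in DESeq2 and 3597 by the authors' p-values over the same genes, and 0 to 2647 when 1 library was left out. The 9 irld and hpa members became 5 with no filter, 0 in edgeR, 19 in DESeq2, 19 by the authors' p-values, and 0 to 12 when 1 library was left out. The 0 insulin signalling genes became 1 with a pseudocount of 8, 3 in DESeq2, 2 by the authors' p-values, and 0 to 3 when 1 library was left out. The 2 EGF signalling genes became 5 with a pseudocount of 8, 1 with no filter, 0 in edgeR, 5 in DESeq2, 4 by the authors' p-values, and 0 to 5 when 1 library was left out. With no filter more genes were tested, and without a library fewer samples were; the cause of the other shifts was not tested.

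With the replicate block 0 genes passed in limma (3951 at an unadjusted p below 0.05), and so did 0 members (14 unadjusted), 0 insulin and 0 EGF signalling genes. Only the mutant has a replicate 3, so the block takes that library out of the comparison. The median log2 fold change of the members was 2.92 under the block and also without mutant replicate 3. The labels do not say whether same-numbered libraries belong together. Their deviations from the group means correlated at 0.0093 for number 1 and 0.11 for number 2. Mutant replicate 3 and wildtype replicate 1 also gave 0.11. With 2 wildtype libraries the deviations of 1 mirror those of the other, so these values cannot decide on pairing. The log2 fold change of irld-27, 1.02, was -0.029 under the block. With 1 library left out it ranged from -0.066 to 2.89 for irld-27, from -0.22 to 2.78 for hpa-1 and from -3.13 to 0.88 for irld-13; no other measured member changed sign under any alternative run. A lone wildtype library was taken to vary as the mutant libraries do. The 9 members that rose kept a positive log2 fold change in every alternative that tested them. Over all genes the median log2 fold change was 0.13, but 0.04 when scaled by upper quartile and -0.02 when scaled by quantiles. Low counts of the members limit the comparison, also in the deeper wildtype libraries: 26 of the 41 measured members had no read in wildtype replicate 2, where 13.5% of all genes tested had none.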
